A study of Bos indicus with 11 samples.

Results

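Adhesion genes of the ICAM, VCAM and selectin families were described in endometrial biopsies of Nelore cows (Bos indicus). The genes were ICAM1, ICAM2, ICAM3, VCAM1, SELE, SELP and MADCAM1, and they were found as the rows of the deposited table with one of these 7 symbols. Of the 24616 rows in the table, 7 belonged to 6 of these symbols, because VCAM1 had 2 rows and ICAM2 had 0 rows of that symbol. All cows were healthy, multiparous and non-lactating, had their estrus synchronized with a prostaglandin F2α analogue and were artificially inseminated (AI). On day 6 after AI each gave 1 biopsy, from the horn on the side without the corpus luteum. By the diagnosis on day 30 the biopsies were divided afterwards into a pregnant (P, n = 6) and a non-pregnant (NP, n = 5) group, so that a replicate is a cow and p-values measure the spread between cows. A biopsy holds epithelium, stroma, vessels and, in varying amounts, muscle, and in such bulk samples fewer cells of a type and less RNA per cell cannot be told apart.

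Apart from ICAM3, known in other species as a leukocyte molecule, these genes encode surface molecules by which vessels hold circulating leukocytes. Selectins on activated endothelium (SELE, SELP) bind glycans on leukocyte glycoproteins such as SELPLG and slow the rolling cell, and the immunoglobulin-like molecules ICAM1, ICAM2, VCAM1 and MADCAM1 are then bound by leukocyte integrins, which arrests it. In the uterus, leukocytes enter the endometrium through this route, and ICAM1 can also be made by epithelial, stromal and immune cells. PECAM1 is a junction molecule of endothelium that is also carried by some leukocytes, and PTPRC encodes the CD45 antigen of leukocytes. Both serve below to relate the adhesion genes to vessels and leukocytes.

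Each library held 9290949 to 13569085 reads assigned to genes. Normalized counts are reads divided by a size factor per cow, with 1 read worth 0.784 to 1.14 normalized counts. Cows P617 and P1541 stood apart from the rest. The summed normalized counts of 7 smooth muscle genes were 394921 in cow P617 and 289256 in cow P1541, against 22970 to 162463 in the other 9 cows. Those of 10 epithelial genes were 2343 and 10463 in the same cows, against 13001 to 28487 in the others. Results that rest on these cows are given with and without them. Cow P617 was labelled pregnant and was kept as P, although a supplementary list of the study names it as non-pregnant.

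With cow P617 kept as P, ICAM1 was higher in every NP cow than in every P cow, and it was the only member row without overlap between the groups. ICAM3, VCAM1 and SELP overlapped between the groups and varied several-fold among cows. SELE and MADCAM1 were near 0 in all cows. The genes were chosen by their levels in NP against P cows, known from an earlier analysis of the same table, so that their differences between the groups are given as a description, with no test. For all genes, limma (a linear model on log2(normalized count + 1)) called 0 of 15081 genes at an adjusted p-value under 0.1, while the unadjusted p-value was under 0.05 for 1182 genes. The numbers of adjusted calls were 0 with edgeR, 0 with limma-voom and 201 with DESeq2, and 1151, 1173 and 1470 genes, respectively, were below 0.05 before adjustment. Over all genes tested, the groups did not overlap in 1.09%, made up of 0.855% with the NP group above and 0.239% with the P group above.

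ICAM1 (ENSBTAG00000010303), the ligand of the leukocyte integrins ITGAL/ITGB2 and ITGAM/ITGB2, was read at 351 normalized counts in cow NP238, 296 in NP638, 331 in NP856, 356 in NP2541 and 383 in NP2810. In P cows it was 115 in cow P617, 203 in P904, 117 in P1541, 152 in P1631, 169 in P1753 and 162 in P2396. The P cow with the highest count therefore lay below the NP cow with the lowest, and cows P617 and P1541 were the lowest of all. If cow P617 were non-pregnant, as the supplementary list of the study names it, the groups would overlap. Mean ICAM1 was 344 ± 32.3 (SD, n = 5) for NP and 153 ± 33.4 (SD, n = 6) for P, which is 2.24-fold. On the log2 scale the difference, NP minus P, was 1.18 (standard error 0.166), and it was 1.00 (standard error 0.134) without cows P617 and P1541. Within the groups ICAM1 was steady, with a standard deviation of 0.25 on the log2 scale, at the 26.2 percentile of the genes tested, whose median was 0.42.

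**Figure D1:**
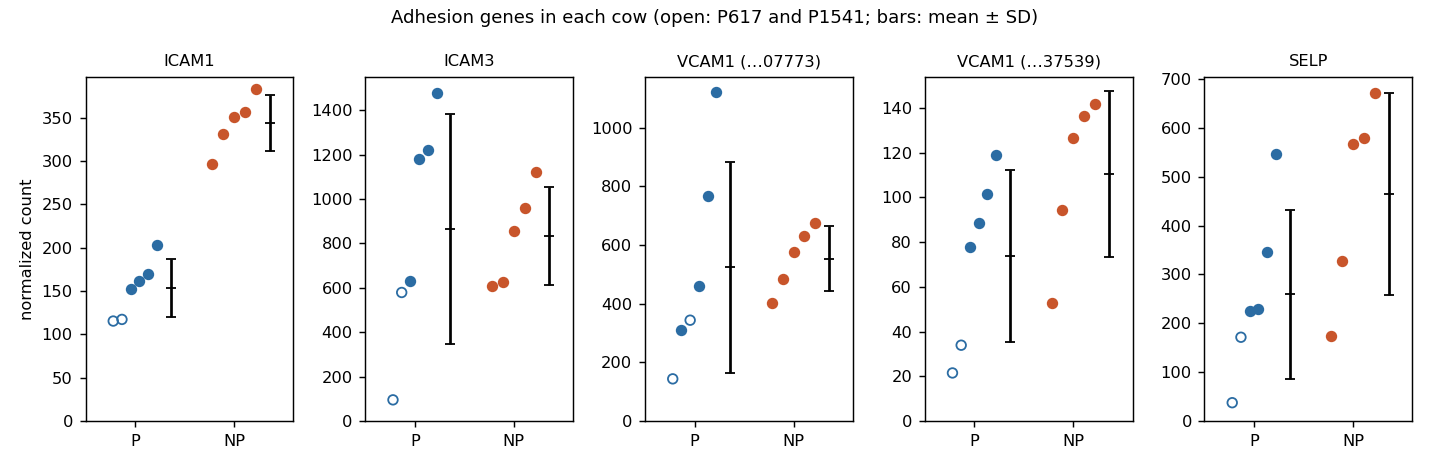
Normalized counts (vertical axes, each from 0) of the 5 adhesion gene rows that passed the filter on low values, in 6 P cows (blue) and 5 NP cows (orange). Points are cows, open points are cows P617 and P1541, and bars are the mean and SD. ICAM1 is the panel in which the groups do not overlap, with P cows up to 203 and NP cows from 296.

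ICAM3 (ENSBTAG00000015742), known in other species as a leukocyte molecule, had a lowest, median and highest count of 94.9, 906 and 1480.1 in P cows. In NP cows it was 607 in cow NP238, 626 in NP638, 960.4 in NP856, 855.5 in NP2541 and 1123 in NP2810. The NP cows lay inside the range of the P cows, and cow P617 alone was far below the rest. The means were 864 ± 517 for P (SD, n = 6) and 834 ± 221 for NP (SD, n = 5). The log2 difference was 0.32 (standard error 0.599) with all cows and -0.23 without cow P617, so that its sign rested on that cow.

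VCAM1, bound by the integrin of ITGA4 and ITGB1, had 2 rows. The row with more reads (ENSBTAG00000007773) had 402 normalized counts in cow NP238, 485 in NP638, 576 in NP856, 631 in NP2541 and 675 in NP2810. In P cows its lowest, median and highest counts were 143, 401 and 1124, in cow P904. The NP cows thus lay inside the range of the P cows. The NP mean was 554 ± 111 (SD, n = 5) and the P mean 525 ± 360 (SD, n = 6). The log2 difference was 0.35 (standard error 0.434), and it was 0.04 without cow P617 and -0.12 (standard error 0.331) without cows P617 and P1541.

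The second VCAM1 row (ENSBTAG00000037539) had fewer reads. In NP cows it was 52.6 in cow NP238, 94.4 in NP638, 142 in NP856, 136 in NP2541 and 126 in NP2810 normalized counts. In P cows the lowest, median and highest counts were 21.5, 83.1 and 119. In 3 NP cows it was above all P cows, but cow NP238 was below 4 of the P cows. Its log2 difference was 0.72 (standard error 0.459), and it was 0.12 (standard error 0.302) without cows P617 and P1541. This row held between 8.29% and 27.8% of the reads of both rows, and in cow P2396, at 27.8%, more than in any other cow. How reads were shared between the rows in counting was not tested. With the rows summed, the log2 difference was 0.39.

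SELP (ENSBTAG00000020755), the P-selectin that endothelium stores together with von Willebrand factor and that platelets also carry, had 173 normalized counts in cow NP238, 327 in NP638, 672 in NP856, 567 in NP2541 and 580.0 in NP2810. In P cows its lowest, median and highest counts were 37.3, 227 and 547, in cow P904. In 3 NP cows it was above all P cows, while cow NP238 was close to cow P1541, at 171. The NP mean was 464 ± 207 (SD, n = 5), against a P mean of 259 ± 173 (SD, n = 6). The log2 difference was 1.06 (standard error 0.600), 0.58 without cow P617 and 0.40 (standard error 0.412) without cows P617 and P1541. Its within-group standard deviation, 1.11 on the log2 scale, was at the 87.0 percentile of the genes tested. Of the platelet genes listed, GP9 had 0 reads in all cows, PPBP reached at most 1.02 and PF4 at most 6.09 normalized counts in a cow, GP1BB had no row of that symbol, and ITGA2B, the only one tested, was at 93.8 ± 24.6 for P (SD, n = 6) and 96.0 ± 44.6 for NP (SD, n = 5).

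SELE (ENSBTAG00000007307), the E-selectin that endothelium makes after stimulation by cytokines, had at most 4 reads in a cow. Reads were found in 2 of 6 P cows (5 reads in all) and in 3 of 5 NP cows (10 reads in all). MADCAM1 (ENSBTAG00000039355), the addressin of gut vessels, had at most 2 reads in a cow, with 3 reads over the P cows and 3 over the NP cows. Both rows failed the filter of a mean of at least 5, and no fold is given. At this depth, differences between the groups were not detectable for either gene. The related genes ICAM4 and ICAM5 had at most 3 and 4 reads in a cow.

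Of the 5 rows tested, all had a log2 difference above 0 with the 11 cows, against 50.2% of all genes, and their median was 0.72 against 0.0018 over all genes. The difference was 1 or more in 2 of the 5, ICAM1 and SELP, and in 4.34% of all genes. Without cow P617 the difference of ICAM3 was below 0, and without cows P617 and P1541 that of VCAM1 (ENSBTAG00000007773) was below 0 as well. The rows were chosen with these values known.

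Vessel and leukocyte genes were compared between the groups because most of these adhesion molecules sit on endothelium and act on leukocytes. PECAM1 (ENSBTAG00000012066) averaged 1139 ± 177 normalized counts for NP (SD, n = 5) and 809 ± 265 for P (SD, n = 6), a log2 difference of 0.55 with an adjusted p-value of 0.579 in limma. PTPRC (ENSBTAG00000023144) averaged 268 ± 51.4 (SD, n = 5) and 199 ± 47.7 (SD, n = 6), a log2 difference of 0.44 with an adjusted p-value of 0.613. Of 12 endothelial markers, all had a log2 difference above 0. For 11 of them limma gave an unadjusted p-value under 0.05, against 7.84% of all genes, and 0 passed the adjustment (0 with edgeR, 1 with DESeq2). Their summed normalized counts were 9847 to 17815 in NP and 5366 to 16247 in P cows, and no marker was at 0. In the 9 cows without P617 and P1541, where 11.1% of all genes were below 0.05 (7.14% higher in the NP and 4.01% higher in the P group), 9 of the 12 were. Of 17 leukocyte markers tested, 16 had a log2 difference above 0 and 6 of these were below 0.05 unadjusted in limma. Without cows P617 and P1541, 2 of the 17 were, a share close to the 11.1% of all genes in either direction. Both were higher in the NP group, where 7.14% of all genes were. The sums of the leukocyte markers were 1601 to 3045 in NP and 1134 to 2412 in P cows, and MS4A1, a marker of B cells, was at most 2.15 in a cow. The 7 stromal genes had log2 differences above 0, although the mean count of PDGFRA was 2497 for NP and 2643 for P. With all cows 2 of them were below 0.05 unadjusted in limma, and 7 without cows P617 and P1541. Their sums were 256683 to 352140 in NP and 123419 to 367368 in P cows. Of the 10 epithelial genes 0 were below 0.05 with all cows, and without the 2 cows 3 were, all higher in the P group. The 7 smooth muscle genes all had a log2 difference below 0, with a median of -1.35, 2 of them below 0.05 unadjusted with all cows and 0 without the 2 cows. The medians of the other lists were 0.72 for endothelium, 0.61 for leukocytes, 0.66 for stroma and 0.29 for epithelium. The part of these cell types in the differences of the adhesion genes was not tested.

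Relative to PECAM1, ICAM1 stood at 0.398 in cow NP238, 0.277 in NP638, 0.280 in NP856, 0.296 in NP2541 and 0.282 in NP2810, as a ratio of normalized counts. In P cows the lowest, median and highest ratios were 0.106 (cow P1541), 0.196 and 0.343 (cow P2396). Cow P2396, which had the lowest PECAM1 count at 472, was thus within the range of the NP cows, and the other P cows were below that range. The ratio of ICAM1 to PTPRC was 1.05 to 1.57 in NP cows and 0.580 to 1.14 in P cows, which also overlapped. The log2 difference between the groups was 0.64 for the ratio to PECAM1 and 0.74 for that to PTPRC. The ratios of SELP and VCAM1 (ENSBTAG00000007773) to PECAM1 overlapped widely, at 0.196 to 0.568 in NP and 0.0675 to 0.505 in P cows for SELP, and at 0.453 to 0.525 in NP and 0.260 to 1.04 in P cows for VCAM1.

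Whether the adhesion genes followed PECAM1 and PTPRC from cow to cow was tested after the group means had been removed. All 10 relations of the 5 rows to the 2 genes had an r above 0, but with 11 cows 0 passed an adjusted p-value of 0.1 and 0 were below 0.05 unadjusted in a two-sided exact permutation test within groups. SELP and PECAM1 had a Pearson r of 0.605 (exact permutation test, p = 0.0849, adjusted p = 0.388) and a Spearman rho of 0.618 (p = 0.0734, exact permutation test). Without cows P617 and P1541 the r was 0.762 (exact permutation test, p = 0.00486, adjusted p = 0.0486), and it was 0.598 without the 2 cows farthest from the median of PECAM1, P617 and P2396. VCAM1 (ENSBTAG00000007773) and PECAM1 had an r of 0.630 (exact permutation test, p = 0.121, adjusted p = 0.388) and a rho of 0.636 (exact permutation test, p = 0.0907). This relation rested on the farthest cows, as the r was 0.195 without P617 and P2396, but 0.837 without P617 and P1541 (adjusted p = 0.155 in the exact permutation test).

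The r of ICAM1 with PECAM1 was 0.236 (exact permutation test, p = 0.576, adjusted p = 0.740) and the rho 0.318 (exact permutation test, p = 0.415), with an r of 0.088 without P617 and P2396 and of 0.549 without P617 and P1541 (adjusted p = 0.352, exact permutation test). With PTPRC the r of ICAM1 was 0.536 (exact permutation test, p = 0.137, adjusted p = 0.388) and the rho 0.364 (exact permutation test, p = 0.349). This r was 0.636 without P1541 and P1753, the cows farthest from the median of PTPRC, and 0.576 without P617 and P1541 (adjusted p = 0.319, exact permutation test). ICAM3 had an r of 0.253 with PECAM1 and of 0.082 with PTPRC (exact permutation test, adjusted p = 0.740 and 0.865), with a rho of 0.10 and 0.209 (exact permutation test, p = 0.807 and 0.577).

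**Figure D2:**
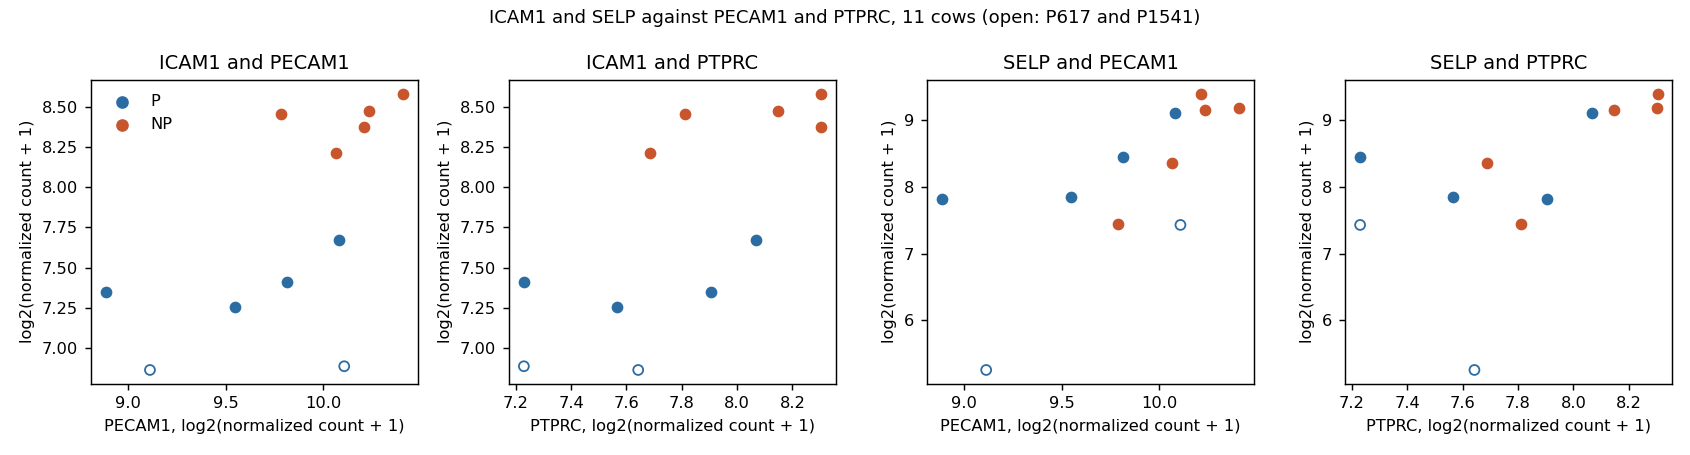
ICAM1 (left panels) and SELP (right panels) against PECAM1 and PTPRC, all as log2(normalized count + 1), in P (blue) and NP (orange) cows, with open points for cows P617 and P1541. ICAM1 is higher in each NP cow than in each P cow, whereas the SELP levels of the groups overlap, with 3 NP cows above all P cows. The same 3 NP cows (NP856, NP2541 and NP2810) are above all P cows in PECAM1 and in PTPRC. No P cow was therefore at their level of these 2 genes.

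The mean log2 level of a whole list of markers was a second measure of each cell type, added after the values had been seen. SELP followed the score of the 12 endothelial markers, with an r of 0.910 (two-sided exact permutation test within groups, p = 3.13e-04, adjusted p = 0.0042 over 25 relations) and a rho of 0.891 (exact permutation test, p = 8.68e-04). Without cows P617 and P1541 the r was 0.915 (exact permutation test, adjusted p = 0.0781), and without P617 and NP2810, the cows farthest from the median of the score, it was 0.904. VCAM1 (ENSBTAG00000007773) had an r of 0.876 with the same score (exact permutation test, p = 0.00133, adjusted p = 0.0111) and a rho of 0.900 (exact permutation test, p = 3.7e-04). Without cows P617 and P1541 its r was 0.818 (exact permutation test, adjusted p = 0.110), and it was 0.808 without P617 and NP2810. The second VCAM1 row had an r of 0.714 (exact permutation test, p = 0.0243, adjusted p = 0.0869), a rho of 0.555 (exact permutation test, p = 0.0954), and an r of 0.575 without P617 and P1541 and of 0.529 without P617 and NP2810. Its highest r was with the epithelial score, at 0.782 (exact permutation test, p = 0.0196, adjusted p = 0.0815) with a rho of 0.673 (exact permutation test, p = 0.063). This r was 0.718 without the farthest cows, P617 and P1631, and -0.101 without P617 and P1541. The r with the epithelial score was 0.764 for SELP and 0.762 for VCAM1 (ENSBTAG00000007773), each with an adjusted p of 0.110 in the exact permutation test, and -0.222 and 0.090 without P617 and P1541. VCAM1 (ENSBTAG00000007773) had an r of -0.628 with the smooth muscle score (exact permutation test, p = 0.0319, adjusted p = 0.0886). The rho was -0.627 (exact permutation test, p = 0.0568), and the r was -0.407 without P617 and P1541.

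ICAM1 had an r of 0.695 with the endothelial score (exact permutation test, p = 0.0355, adjusted p = 0.0886) and a rho of 0.691 (exact permutation test, p = 0.0298). The r was 0.617 without P617 and P1541 (exact permutation test, adjusted p = 0.349) and 0.526 without P617 and NP2810. Its r with the score of 17 leukocyte markers was 0.696 (exact permutation test, p = 0.0100, adjusted p = 0.0501) and its rho 0.573 (exact permutation test, p = 0.0752). That r was 0.832 without P617 and P1541 (exact permutation test, p = 0.0132, adjusted p = 0.110) and 0.775 without the farthest cows, NP856 and NP2810. With the smooth muscle score the r was -0.797 (exact permutation test, p = 0.00374, adjusted p = 0.0234) and the rho -0.664 (exact permutation test, p = 0.0399). Here P617 and P1541 were also the farthest cows, and the r was -0.643 without them (exact permutation test, adjusted p = 0.349). With the epithelial score the r of ICAM1 was 0.695 as well (exact permutation test, p = 0.0727, adjusted p = 0.13). The rho was 0.736 (exact permutation test, p = 0.031). This r was 0.829 without the farthest cows, P617 and P1631, and -0.137 without P617 and P1541. Of the 25 relations, 10 passed an adjusted p-value of 0.1 with 11 cows and 1, that of SELP to endothelium, with 9 cows.

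ICAM3 was related to epithelial genes, a relation that did not pass without cows P617 and P1541. Its r with the score of 10 epithelial markers, such as EPCAM and KRT18, was 0.964 (exact permutation test, p = 3.36e-04, adjusted p = 0.0042) and its rho 0.818 (exact permutation test, p = 0.00535). Without cows P617 and P1541 the r was 0.725 (exact permutation test, p = 0.0792, adjusted p = 0.349), and it was 0.720 without P617 and P1631, the cows farthest from the median of the score. With the stromal score the r of ICAM3 was -0.738 (exact permutation test, p = 0.0325, adjusted p = 0.0886) and the rho -0.745 (exact permutation test, p = 0.0286). That r was -0.631 without P617 and P1541 (exact permutation test, adjusted p = 0.365). With the leukocyte score the r of ICAM3 was 0.157 (exact permutation test, adjusted p = 0.601) and with the endothelial score 0.490 (exact permutation test, adjusted p = 0.282). The difference between the r values of the lists was not tested.

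**Figure D3:**
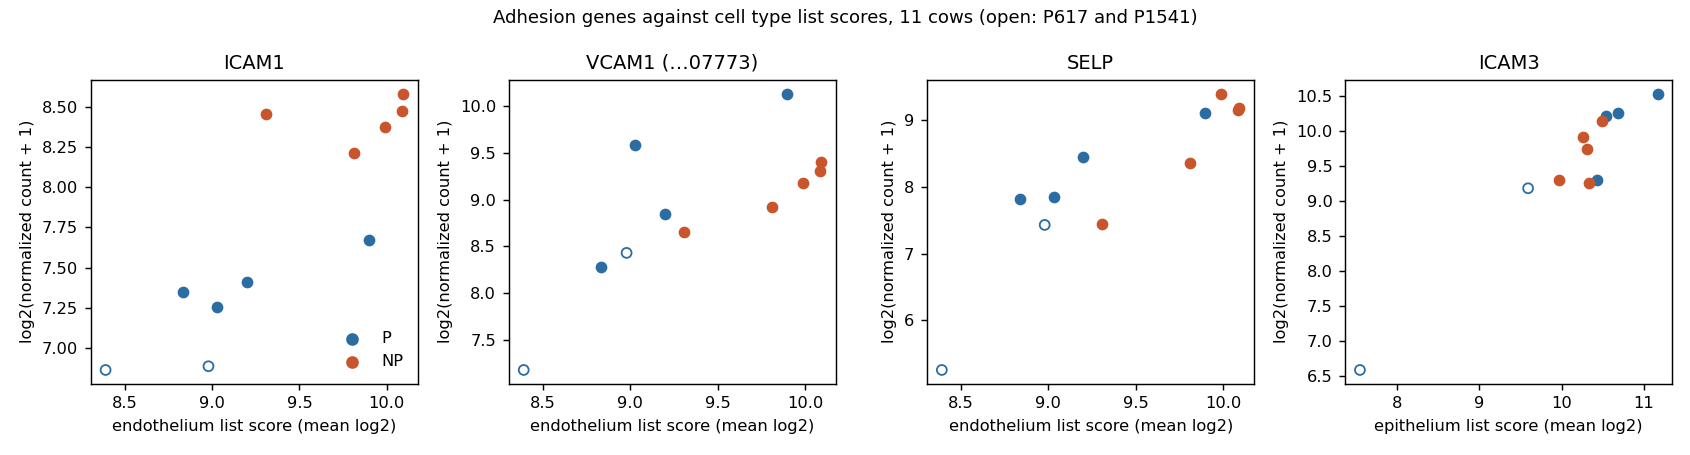
ICAM1, VCAM1 (ENSBTAG00000007773) and SELP against the mean log2 level of 12 endothelial markers, and ICAM3 against that of 10 epithelial markers (vertical axes, log2(normalized count + 1)), in P (blue) and NP (orange) cows, with open points for cows P617 and P1541. For ICAM1 the NP cows form a band above the P cows, whereas the VCAM1 and SELP levels of the groups overlap. With this score as a covariate the log2 difference, NP minus P, was -0.97 (standard error 0.329) for VCAM1. For SELP it was -0.84 (standard error 0.392), and no test is attached to either. Of the P cows only P904 lies within the range of the NP endothelial scores.

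Cows P904 and NP238 had endothelial scores away from the rest of their groups. Cow P904 had the highest endothelial score of the P cows, 9.90, which was above those of cows NP238 (9.31) and NP638 (9.81). Its VCAM1 (ENSBTAG00000007773) count, 1124, was the highest of the 11 cows and its SELP count, 547, was above those of NP238 and NP638, but its ICAM1 count, 203, was below that of each NP cow. Cow NP238 had the lowest endothelial score of the NP cows and the lowest counts of both VCAM1 rows and SELP in that group, and its ICAM1 count, 351, was above those of NP638 and NP856.

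With the endothelial score as a covariate in limma, the log2 difference of ICAM1 was 0.86 (standard error 0.204). That of SELP became -0.84 (standard error 0.392), that of VCAM1 (ENSBTAG00000007773) -0.97 (standard error 0.329) and that of the second VCAM1 row -0.38 (standard error 0.503). Of the P cows only P904 lay within the range of the NP endothelial scores, 9.31 to 10.09. The other P cows had scores of 8.39 to 9.20, below every NP cow. Values adjusted for this score therefore extrapolate beyond the scores that the groups share. The difference of ICAM1 was 1.10 with PECAM1, 1.00 with PTPRC, 0.94 with the leukocyte score, 0.96 with the smooth muscle score, 1.13 with the epithelial score and 1.35 with the score of 7 stromal genes as the covariate. It was thus above 0 in each of these 7 fits. For SELP the range over the same fits was -0.84 to 1.64, and with PECAM1 as the covariate it was 0.15 (standard error 0.628). For ICAM3 it ranged from -0.70 (standard error 0.783) with the endothelial score to 1.29 (standard error 0.499) with the stromal score, and it was 0.02 (standard error 0.175) with the epithelial score. VCAM1 (ENSBTAG00000007773) ranged from -0.97 with the endothelial to 0.76 with the stromal score, and its second row was below 0 with the endothelial score and above 0 with the other 6 covariates. No test is attached to these differences, which come from the comparison that chose the genes.

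**Figure D4:**
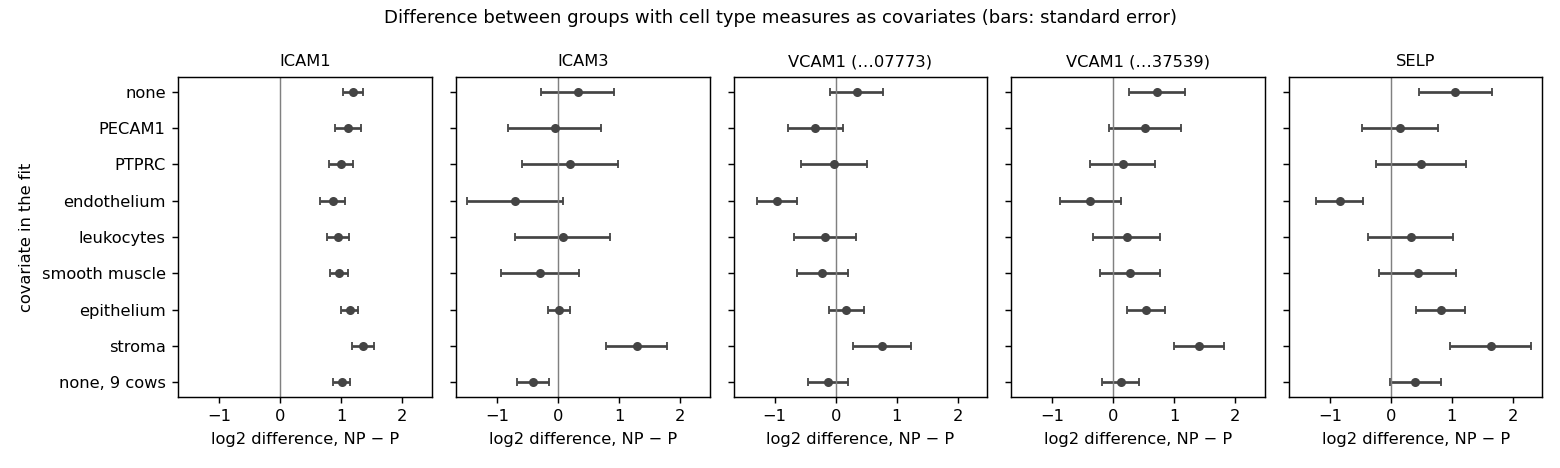
Log2 difference NP minus P (horizontal axes) of the 5 adhesion gene rows, with no covariate, with each of 7 cell type measures as a covariate in limma, and with no covariate in the 9 cows without P617 and P1541. Points are estimates and bars are standard errors. ICAM1 stays between 0.86 and 1.35, and the other rows lie on both sides of 0.

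Pairs of adhesion genes varied together among cows within the groups, but no pair passed in the 9 cows without P617 and P1541. All 10 pairs of the 5 rows had an r above 0, and 8 pairs passed an adjusted p-value of 0.1 in the exact permutation test with 11 cows, against 0 with 9 cows. These 8 include the 2 VCAM1 rows with each other, and the share among all pairs of genes was not determined. The second VCAM1 row and SELP had an r of 0.885 (exact permutation test, p = 7.99e-04, adjusted p = 0.00799), a rho of 0.773 (exact permutation test, p = 0.0105), and an r of 0.791 (adjusted p = 0.217, exact permutation test) without the 2 cows. VCAM1 (ENSBTAG00000007773) and SELP had an r of 0.859 (exact permutation test, p = 0.0024, adjusted p = 0.012), a rho of 0.773 (exact permutation test, p = 0.014), and an r of 0.633 without the 2 cows. The 2 rows of VCAM1 had an r of 0.697 with each other (exact permutation test, p = 0.0524, adjusted p = 0.0655) and a rho of 0.427 (exact permutation test, p = 0.261), and an r of 0.191 without the 2 cows. ICAM1 and ICAM3 had an r of 0.583 (exact permutation test, adjusted p = 0.160) and a rho of 0.509 (exact permutation test, p = 0.162), and an r of -0.306 without the 2 cows.

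Genes with a pattern like that of each member were named by the r of group-centred log2 values over 11 cows, as a description. The 5 genes most like ICAM1 were GPCPD1 (0.957), ENSBTAG00000039993 (0.955), SMARCD2 (0.951), GDF6 (0.950) and TNK2 (0.949). Those most like ICAM3 were the rows of ESRP1, a splicing factor of epithelium (0.986), CHDH (0.985), ITPR3 (0.983), LSR, a protein of epithelial tricellular junctions (0.982), and HOXB7 (0.981). For SELP they were TTC39C (0.973), AQP1, a water channel of capillary endothelium and other cells (0.962), CDH5, the cadherin of endothelial junctions (0.958), ENSBTAG00000015296 (0.951) and LOC508153 (0.951). For VCAM1 (ENSBTAG00000007773) they were BEGAIN (0.980), VPS72 (0.965), LOC100336251 (0.957), RAMP3, a partner of the adrenomedullin receptor (0.956), and GRTP1 (0.953), and for the second VCAM1 row ZNF789 (0.961), FOXP3, the transcription factor of regulatory T cells (0.953), BSCL2 (0.951), AGT (0.945) and CBS (0.943). These values are the highest among 15080 genes and share the libraries.

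The partners of the adhesion genes were taken from lists of receptors and ligands, glycan enzymes, junction molecules, cytoskeletal partners, NF-kB and cytokine genes and other family members. Of the 60 genes tested in these lists, 11 were below 0.05 unadjusted in limma, which is 18.3%, against 7.84% of all genes. The NP group was higher in 9 of these, where 5.49% of all genes were, and the P group in 2, where 2.35% of all genes were. None of the 60 passed the adjustment in limma, edgeR or limma-voom (0 each, with 11, 12 and 11 genes below 0.05 unadjusted), and DESeq2 called 2, ST3GAL4 (adjusted p = 0.0562) and CDH5 (adjusted p = 0.0937). The median log2 difference over the 60 genes was 0.12, and with each cow left out in turn the 11 genes became 5 to 14, with 5 without cow NP2810 and 7 without cow NP2541.

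Among receptors and ligands, 2 of 10 genes tested had an unadjusted p-value under 0.05, both higher in NP cows. Of all genes tested, 5.49% were below 0.05 and higher in NP cows, and 7.84% were below it in either direction. ITGAL, which pairs with ITGB2 as the receptor of ICAM1 on lymphocytes, averaged 63.6 ± 11.9 normalized counts for NP (SD, n = 5) and 30.8 ± 17.5 for P (SD, n = 6), a log2 difference of 1.24 (adjusted p = 0.484 in limma). In the 9 cows without P617 and P1541 it was 0.70. SELPLG, the mucin that the selectins bind, averaged 60.0 ± 22.4 (SD, n = 5) and 33.6 ± 14.3 (SD, n = 6), a log2 difference of 0.85 (adjusted p = 0.556 in limma) with all cows and without the 2 cows alike. ITGB2 itself differed by 0.19 and ITGAM, its partner on myeloid cells, by 0.41 on the log2 scale (adjusted p = 0.892 and 0.826 in limma). The chains that bind VCAM1 and MADCAM1 had log2 differences of 0.27 for ITGA4, whose row carries a second symbol and was chosen after its values were seen, -0.21 for ITGB1 and -0.47 for ITGB7, with adjusted p-values from 0.780 to 0.881 in limma.

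Among the 9 enzymes that build glycans for selectins, 1 gene was higher and 1 was lower in NP cows at an unadjusted p-value under 0.05. At that threshold 5.49% of all genes were higher and 2.35% were lower in NP cows. Without cows P617 and P1541, 3 of the enzymes were higher and 1 was lower, where 7.14% and 4.01% of all genes were. With all cows edgeR put 3 of the enzymes below 0.05, and 1151 of the 15081 genes tested. ST3GAL4, a sialyltransferase, averaged 913 ± 35.8 normalized counts for NP (SD, n = 5), with all from 875 to 969, and 658 ± 121 for P (SD, n = 6), from 549 to 859. It was the only gene of the 60 without overlap between the groups, a share near the 1.09% of all genes that did not overlap. Its log2 difference was 0.49 (adjusted p = 0.303 in limma) and 0.41 without cows P617 and P1541. CHST4, a sulfotransferase that modifies selectin ligands, was higher in P cows, at 60.0 ± 38.4 (SD, n = 6) against 19.2 ± 12.4 for NP (SD, n = 5), a log2 difference of -1.50 (adjusted p = 0.503 in limma), and -1.55 without the 2 cows.

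Of 11 junction molecules tested, 10 had a log2 difference above 0, against 50.2% of all genes. In limma 4 of them were below 0.05 unadjusted, where 5.49% of all genes were below it and higher in NP cows. CDH5 averaged 786 ± 144 normalized counts for NP (SD, n = 5) and 422 ± 159 for P (SD, n = 6), a log2 difference of 0.96 (adjusted p = 0.330 in limma), or 0.68 without cows P617 and P1541. ESAM, an adhesion molecule of endothelial tight junctions, differed by 0.65 and BCAM, a laminin receptor, by 0.49, next to PECAM1. CDH5, ESAM and PECAM1 are among the 12 endothelial markers, so that these counts are not separate from those of the endothelium. In the 9 cows without P617 and P1541, 2 of the 11 were below 0.05, against 11.1% of all genes.

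Of 11 cytoskeletal partners, which link ICAM1 and VCAM1 to actin, 1 had an unadjusted p-value under 0.05, against 7.84% of all genes. ACTN1, also a gene of smooth muscle, was higher in P cows by 0.87 on the log2 scale (adjusted p = 0.564 in limma), and by 0.44 without cows P617 and P1541. Of 19 genes tested of NF-kB and cytokine activation, which controls ICAM1, VCAM1 and SELE in endothelium, 2 had an unadjusted p-value under 0.05, 10.5% against 7.84% of all genes. IRF1, an interferon-induced factor, averaged 721 ± 154 normalized counts for NP (SD, n = 5) and 484 ± 179 for P (SD, n = 6), and NFKBIA, the inhibitor that NF-kB induces, averaged 2792 ± 489 (SD, n = 5) and 2011 ± 570 (SD, n = 6). Their log2 differences were 0.63 and 0.51 (adjusted p = 0.514 and 0.607 in limma), and 0.37 and 0.25 without the 2 cows, when 3 of the 19 were below 0.05 (11.1% of all genes) and IRF1 and NFKBIA were not. The subunits NFKB1, NFKB2 and RELA had log2 differences of 0.04, -0.05 and 0.03, RELB of 0.32 and REL of 1.21 (standard error 0.74). Without the 2 cows the difference of REL was 0.16. That of RELB was 0.53, and RELB was among the 3 genes then below 0.05. The cytokines TNF and IL6 and the chemokine IL8 had means under 5 normalized counts over the cows and were not tested.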

How the data were processed

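Per the study's methods and the submitters' processing notes, read pairs were cleaned by Seqyclean, aligned by Bowtie2 2.1.0 to masked UMD3.1, a Bos taurus assembly, counted per gene by HTSeq 0.5.4p2 and scaled by DESeq2 1.12.1. The annotation release and the use of strand are not given in the sources used here, so counts of overlapping or copied genes are uncertain. The 1 table that the authors deposited gives a signal per gene and cow, the read count divided by a size factor. In each of the 11 cows 100% of the values were whole multiples of 1 read (within 0.1 read), and reads were recovered from them.

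Groups came from the labels. The main test was limma 3.58.1 (trend, R 4.3.3) on log2(normalized count + 1), for genes averaging 5 or more, with Benjamini-Hochberg adjustment at 0.1. Other scalings, pseudocounts, filters and covariates and leaving out cows were tried as alternatives, and recovered reads were tested with edgeR 4.0.16, limma-voom and DESeq2 1.42.0. Relations used group-centred log2 values and two-sided permutation over all 86400 arrangements of cows within groups, and were adjusted over 10 relations to PECAM1 and PTPRC, 10 pairs of members and 25 relations to list scores. Scripts were tested on simulated data. The members and gene lists were chosen with earlier results of these data known. Genes were named as members, as main receptors, as list genes at an unadjusted p-value under 0.05 (at most 6 per list, by p-value) and as the 5 genes most like each member. Lists were matched by exact symbol, and 1 list gene is not reported here. The planned search for promoter motifs was not run, and coordinates are left out, the reference table being of another assembly. No replicate numbers are shared between the groups, so that no pairing was used.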

Additional observations from a re-analysis of the deposited data

Results flagged for a closer look

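Of 32 groups of values examined for a cow far from the rest of its group, 1 was flagged, where chance flags about 1 in 20. The ratio of ICAM1 to PECAM1 was 0.398 in cow NP238, against 0.296 in the nearest NP cow, and this gap was 0.842 of the range of the NP cows (critical value 0.71). Cow NP238 had the lowest PECAM1 count of the NP cows, 882 normalized counts, and an ICAM1 count of 351, within the range of the group.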

How the results depend on the processing

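The log2 difference of ICAM1 was above 0 in all 24 alternatives, from 0.86 to 1.35, and moved by more than the spread among cows only with the endothelial score as a covariate, at 0.86. With that covariate the differences were -0.97 for VCAM1 (ENSBTAG00000007773), -0.38 for the second VCAM1 row and -0.84 for SELP. Only cow P904 of the P group had an endothelial score within the NP range. With each cow left out in turn the differences ranged from 1.11 to 1.27 for ICAM1, from -0.23 to 0.56 for ICAM3, from 0.04 to 0.63 and from 0.42 to 0.96 for the VCAM1 rows and from 0.58 to 1.37 for SELP. The number of genes with an adjusted p-value under 0.1 was 0 in limma, 201 with DESeq2, 104 with the epithelial score as a covariate, 17 without cows P617 and P1541, and from 0 to 171 with each cow left out, 171 being without cow P904. At an unadjusted p-value under 0.05 there were 751 genes with the smooth muscle score as a covariate, and 853 to 1548 with each cow left out. Of the 10 relations to PECAM1 and PTPRC, 0 passed in the main test and with any cow left out, 5 passed without removal of the group means, 5 with list scores in place of both genes, and 1 without cows P617 and P1541. The partner genes at an unadjusted p-value under 0.05 numbered 5 to 14 with each cow left out, with 5 without cow NP2810 and 7 without cow NP2541. SELE and MADCAM1 were limited by depth. The summed VCAM1 rows and the 25 relations to list scores were added after seeing the data. The cause of these changes was not tested.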
